A study of Mus musculus with 16 samples.

Results

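The 31 genes described here make cholesterol and fatty acids or control and carry these lipids, and were taken from a fixed list of symbols, of 53379 genes in each library. All 31 symbols had 1 entry in every library, and all 31 passed the filter on low values in every comparison. By role, 7 act in the mevalonate steps, 11 turn farnesyl diphosphate into cholesterol, 5 are regulators or transport sterol, and 8 make or modify fatty acids.

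RNA was sequenced from dorsal root ganglia, the clusters of sensory neuron cell bodies beside the spinal cord, of naive mice aged 8 to 12 weeks. All groups shared the same genotype, Nav1.8Cre and Rosa26fsTRAP on a C57BL/6J background, in which Cre is driven by the promoter of Scn10a and switches on the EGFP-tagged ribosomal protein L10a. Scn10a encodes the sodium channel Nav1.8, which marks pain-sensing neurons (nociceptors). The groups were female IP, male IP, female IN and male IN, with 4 libraries each. IP is RNA bound to the tagged ribosomes, pulled down by the EGFP tag, and IN is the total RNA of the same whole ganglia. Every pool held ganglia of 3 mice of 1 sex and gave 1 IP and 1 IN library, so the 8 pools came from 24 mice in all. A pool hides the spread between its mice, and the tag marks only cells with a history of Nav1.8 expression. No group received an agent, and no wild type mice without the tag are among the samples.

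Cholesterol is built from acetyl-CoA through mevalonate and squalene, and fatty acids from the same acetyl-CoA through malonyl-CoA. The transcription factors SREBP1 and SREBP2 switch on these genes when sterols in the endoplasmic reticulum run low, with SCAP carrying them to the Golgi and INSIG proteins holding them back. In peripheral nerve, myelinating Schwann cells are known for heavy lipid synthesis during myelination, while neurons are thought to combine synthesis of their own with uptake of lipoprotein cholesterol supplied by glia.

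The start regions of 4 members are shown because SREBP proteins act through short promoter elements that sit beside boxes for NF-Y and Sp1. Of the 31 members, 24 had a window in the promoter table made from RefSeq for GRCm38.p6, which spans 250 bases before to 50 after a gene's start. Hmgcs1 and Srebf2 stand for a sterol gene and its regulator. Hsd17b7 and Lss were the sterol genes lowest in IP against IN. Capitals mark a sterol regulatory element, read as TCACNNCAC, and the NF-Y box CCAAT, which appears as ATTGG where it lies on the other strand. The stretches end at position -31 or further upstream and were cut to the longest run free of annotated exons. That of Hsd17b7 begins at -203 and the others at -250. They are Hmgcs1 at chr13:119690101-119690320 on the plus strand, Hsd17b7 at chr1:169969242-169969408 on the minus strand, Srebf2 at chr15:82147019-82147180 on the plus strand and Lss at chr10:76531355-76531574 on the plus strand, all in GRCm38.
Hmgcs1: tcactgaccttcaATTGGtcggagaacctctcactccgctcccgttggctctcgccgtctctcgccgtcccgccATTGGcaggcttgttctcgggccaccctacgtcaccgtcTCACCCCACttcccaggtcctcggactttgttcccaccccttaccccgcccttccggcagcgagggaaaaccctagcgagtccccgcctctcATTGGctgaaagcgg
Hsd17b7: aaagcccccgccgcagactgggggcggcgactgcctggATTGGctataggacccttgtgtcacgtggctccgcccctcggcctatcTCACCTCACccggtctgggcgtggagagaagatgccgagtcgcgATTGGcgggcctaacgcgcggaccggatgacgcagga
Srebf2: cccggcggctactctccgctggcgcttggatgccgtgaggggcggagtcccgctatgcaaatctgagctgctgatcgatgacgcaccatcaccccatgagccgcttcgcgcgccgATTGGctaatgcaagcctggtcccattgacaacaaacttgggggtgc
Lss: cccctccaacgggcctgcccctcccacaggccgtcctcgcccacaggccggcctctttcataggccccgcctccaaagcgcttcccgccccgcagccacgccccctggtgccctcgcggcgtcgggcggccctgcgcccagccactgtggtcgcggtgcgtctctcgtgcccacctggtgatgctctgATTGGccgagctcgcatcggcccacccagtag
In Hmgcs1 the sterol element lay between positions -137 and -129 relative to the start, and 3 NF-Y boxes lay between -237 and -41. In Hsd17b7 it lay between -117 and -109 with 2 NF-Y boxes, while the printed stretches of Srebf2 and Lss held 1 NF-Y box each and no match to TCACNNCAC. Searched on both strands of the whole windows, TCACNNCAC was present in 4 of the 24 members (Hmgcs1, Msmo1, Hsd17b7 and Dhcr7), or 16.7%, against 4.37% of all 27025 genes in the table. The stricter TCACNCCAC, a subset of the former, was present in Hmgcs1 only, against 1.44% of all genes. CCAAT was present in 19 of 24 members (79.2%), against 41.1% of all genes and 42.1% of protein-coding genes. The Sp1 box GGGCGG was present in 20 of 24 members (83.3%), against 38.2% of all genes and 51.0% of protein-coding genes. TCACNTGA, an E-box form that SREBP1 also binds, was present in none of the 24 windows, against 4.78% of all genes. Of the members with TCACNNCAC, Msmo1 and Dhcr7 were called higher in IP, Hsd17b7 was called lower and Hmgcs1 did not pass, as given below. A part of the element in these directions was not tested, and members without a window could not be searched. A match of letters is not a measured binding site, and the lack of an exact match does not show that an element is absent.

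The values are TPM, transcript levels that are corrected for gene length and add up to 1000000 per library. Because TPM hold no read counts, no depth can be given. Between 44.9% and 79.5% of the TPM of IP libraries, against 9.58% to 13.3% of those of IN libraries, belonged to nuclear protein-coding genes, so all levels below are TPM scaled between libraries by the median ratio over the tested genes, called scaled TPM. Log2 differences are on the scale of log2(scaled TPM + 1), which understates changes of low genes, and a gene is called where limma's adjusted p was under 0.05. Levels with ± are the mean and SD over the 8 libraries of a fraction, and differences with ± carry the SE of the fit. The 12 nociceptor markers were all higher in IP, with a summed level of 2908 to 4133 in IP and 1119 to 1353 scaled TPM in IN. Scn10a, whose promoter drives Cre, is among them. The marker lists were chosen with earlier results of these data known, so their shared directions are no independent test of the fractions. The 8 satellite glia markers were all lower in IP, with sums of 119 to 246 in IP and 795 to 1120 in IN. So were the 11 markers of myelinating Schwann cells, with 417 to 1071 in IP and 2533 to 3760 in IN. Of 8 markers of large-diameter neurons, 7 were lower and 0 higher, with sums of 190 to 298 in IP and 460 to 583 in IN. The tested markers of fibroblasts, macrophages and endothelial cells were all lower as well. No marker of the nociceptor, satellite glia and Schwann cell lists was at 0 in any library, so RNA of glial markers was present in every IP library. The IP library of female pool 2 stood apart, with the highest sums of both glial lists, 246 and 1071, the lowest nociceptor sum, 2908, and the lowest share of protein-coding TPM in IP. Counts of members called in IP against IN are therefore also given without this pool where they moved.

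**Figure D1:**
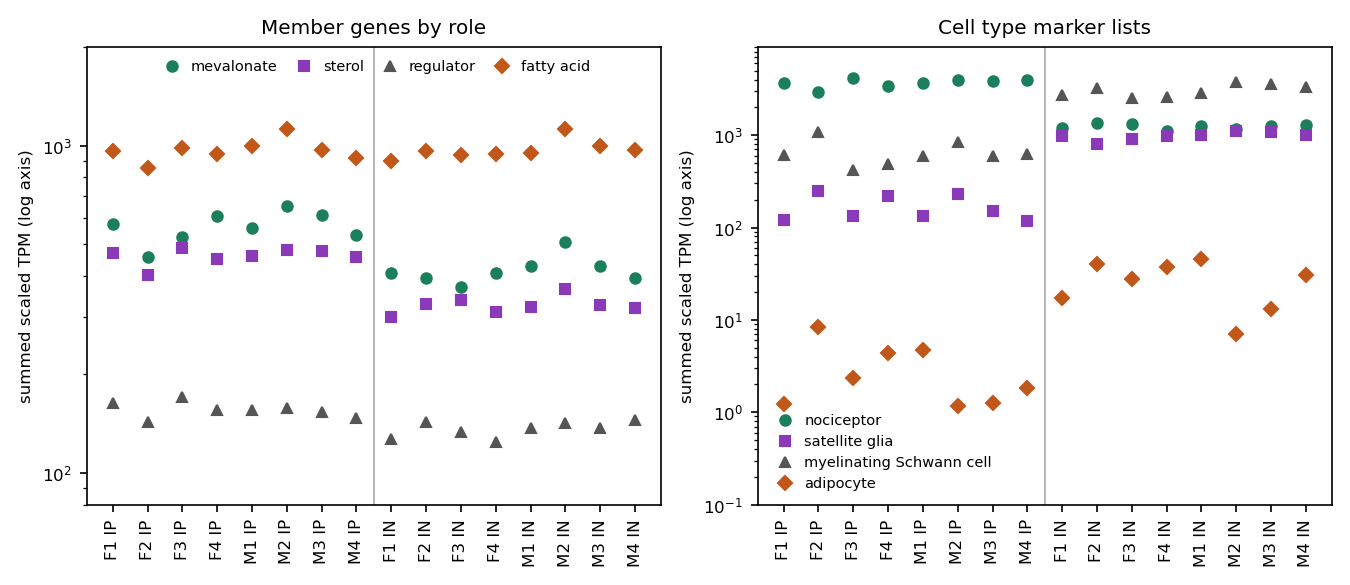
Summed scaled TPM on log axes in each of the 16 libraries, for the member genes by role (left) and for 4 cell type marker lists (right), with IP libraries to the left of IN libraries. F and M with a number name the pools. The fatty acid genes had sums of 852 to 1122 in IP and 899 to 1121 in IN, which overlap, while the sterol genes had 403 to 487 in IP and 300.2 to 365 in IN, which do not.

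Among the tested genes, 30 of the 31 members in IP and all 31 in IN had a mean level above percentile 50, and 27 in IP and 23 in IN above percentile 75. The 31 members together summed to 2148 ± 156 scaled TPM in IP and 1851 ± 123 scaled TPM in IN (mean ± SD over 8 libraries each). Scd2, a stearoyl-CoA desaturase that makes monounsaturated fatty acids, had the highest level of the members in both fractions, 372 ± 48.4 in IP and 460 ± 58.7 in IN. Hmgcs1, which makes HMG-CoA, came next with 236 ± 26.7 in IP and 228 ± 26.6 in IN, ahead of Scd1 with 207 ± 22.9 in IP and 218 ± 12.6 in IN. Acly, which makes cytosolic acetyl-CoA from citrate, followed in both, with 196 ± 10.4 in IP and 103 ± 6.05 in IN. In IP the ranges of Hmgcs1 (209 to 293), Scd1 (176 to 243) and Acly (176 to 209) overlapped, so their order is not beyond their spread. The lowest member in IP was Lss with 5.26 ± 1.56, and in IN it was Ebp with 10.9 ± 1.37, close to Lss with 11.1 ± 3.80. Among all tested genes Scd2 stood at percentile 99.5 in IP and 99.6 in IN, and Lss at percentile 44.4 in IP and 61.2 in IN.

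The first comparison asks which of these RNAs are relatively more or less abundant on ribosomes of Nav1.8 neurons than in the ganglion as a whole. In the ribosome-bound RNA, most enzymes of cholesterol synthesis were higher, while 4 members that lengthen or desaturate fatty acids (Elovl6, Scd2, Fads1 and Fads2) were lower. Of the 31 members, 17 were higher and 9 lower in IP, and 5 did not pass (Hmgcs1, Idi1, Sc5d, Stard4 and Scd1). Over all 16099 genes tested 40.5% were higher and 38.9% lower (79.4% in either direction), so the members' 54.8% higher and 29.0% lower are to be read against a test that calls most genes. With the protein-coding total as the scale the members' counts were 14 higher (45.2%) and 12 lower (38.7%), where 27.3% of all genes were higher and 50.5% lower. With quantile normalization they were 15 (48.4%) and 11 (35.5%), where 49.3% of all genes were higher and 31.3% lower, so that the members' share of higher calls was near that of all genes. With deposited TPM and no scaling, where the median of all genes is itself 1.84 higher, all 31 were higher, with a median of 2.51. Without female pool 2, 17 were higher and 8 lower. On the main scale the median log2 difference was 0.32 over the members and 0.02 over all genes.

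Most of these differences were small. Only Dhcr7 and Mvk were called and 2-fold or more apart, where 3.11% of all genes were called and at least 2-fold higher and 13% at least 2-fold lower. In 13 members all 8 IP libraries lay above all 8 IN libraries, and in 6 all lay below, against 22.4% and 26% of all genes. The direction was the same in all 8 pools for 14 members that were higher and 7 that were lower. For this count the share of all genes was not computed. In bulk RNA a difference between the fractions can stand for a share of cells or for RNA per cell. Since IP is ribosome-bound and IN is total RNA, it can also stand for how much of an RNA is on ribosomes. These cannot be told apart here. The marker sums given above differ between the same fractions, and their part in these results was not tested.

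**Figure D2:**
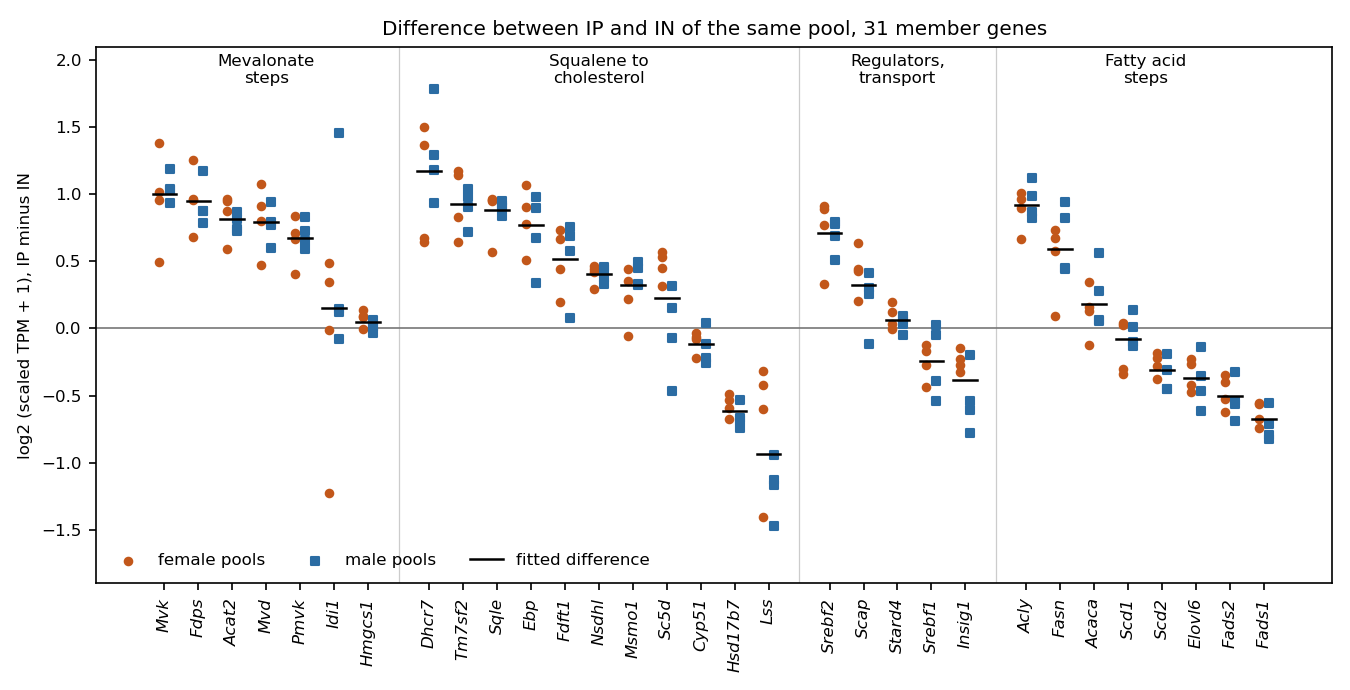
Log2 difference of IP minus IN for each of the 31 members, ordered by role and then by size, with 1 point for each of the 8 pools (female and male pools in different colours) and a bar for the fitted difference. Mevalonate and sterol genes lie mostly above 0, from 1.17 for Dhcr7 down to -0.93 for Lss. Fads1, Fads2, Elovl6 and Scd2 lie below 0. With unscaled TPM all 31 lie above 0, where the median of all genes is itself 1.84.

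The mevalonate genes were the most uniform group. Of the 7, 5 were higher (Acat2, Mvk, Pmvk, Mvd and Fdps), with no overlap between the fractions in any of the 5, and none was lower. Of all genes 40.5% were higher and 38.9% lower, and 22.4% had all IP libraries above all IN libraries. The group's median log2 difference was 0.80, and it was 0.52 with quantile normalization and 0.57 with the protein-coding total, in both of which Hmgcs1 was called lower. Mvk, the kinase that phosphorylates mevalonate, lies at chr5:114444269-114460591 on the plus strand (GRCm38, as for all members). Its lowest, median and highest levels were 21.4, 33.5 and 35.2 scaled TPM in IP, against 12.8, 14.8 and 17.3 in IN. Every IP library was thus above every IN library, and the lowest of them was that of female pool 2. The log2 difference of Mvk was 1.01 ± 0.08 (SE, n = 8 pools, limma, adjusted p = 1.1e-06), a 2.09-fold ratio of the means.

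The other mevalonate genes that were higher are spread along the chain. Acat2, a thiolase that joins 2 acetyl-CoA, averaged 73.0 ± 9.04 in IP and 40.8 ± 4.11 scaled TPM in IN, as mean ± SD over 8 libraries of each fraction, with a log2 difference of 0.82. Its paralog Acat3, whose reads could be shared with it, had 20.9 ± 3.98 in IP and 9.34 ± 0.88 in IN, so both were called higher. Pmvk and Mvd, which add the second phosphate and then remove carbon dioxide, had log2 differences of 0.68 ± 0.05 and 0.80 ± 0.06 (SE). Fdps, which makes farnesyl diphosphate, averaged 113 ± 11.2 in IP and 57.8 ± 3.48 in IN, a difference of 0.95 ± 0.06 (SE) on the log2 scale.

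Hmgcs1 and Idi1 were the exceptions among the mevalonate genes. Hmgcs1 lay at chr13:119690379-119708260, downstream of the first sequence shown, and had its lowest, median and highest levels at 209, 232 and 293 scaled TPM in IP, against 205, 223 and 290 in IN. The fractions overlapped almost completely, and male pool 2 was the highest library of both. The log2 difference was 0.05, with a 95% interval of -0.04 to 0.14 (limma, adjusted p = 0.31). With quantile normalization it was -0.20 and with the protein-coding total -0.19, so its sign depends on the scaling. Idi1, the isomerase of isopentenyl diphosphate, fell into separate levels that followed neither sex nor fraction. In female pools 1 to 4 it had 27.9, 10.8, 11.3 and 29.7 in IP, against 19.6, 26.7, 8.70 and 29.9 scaled TPM in IN. In male pools 1 to 4 it had 30.1, 32.0, 30.6 and 30.7 in IP, against 27.1, 33.9, 28.1 and 10.5 in IN. Only female pool 3 was low in both of its libraries. Whether reads of Idi1 were assigned to it alike in all libraries was not tested, so its levels are uncertain. Its log2 difference of 0.16 ± 0.22 (SE, n = 8 pools) did not pass (limma, adjusted p = 0.53) and was -0.03 without male pool 4.

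**Figure D3:**
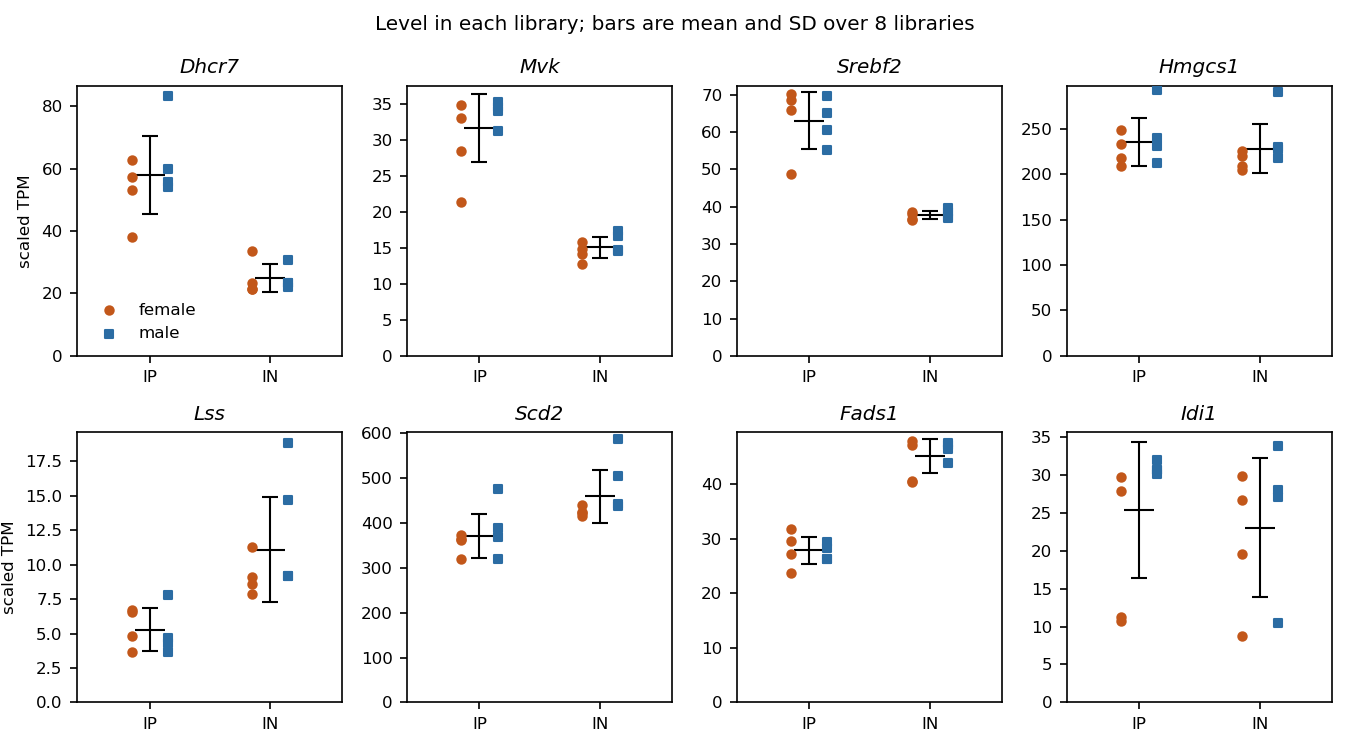
Scaled TPM of 8 members in every library on linear axes that start at 0, 1 panel per gene, with IP libraries to the left of IN libraries, female and male pools in different colours, and bars for the mean and SD over 8 libraries. The Dhcr7, Mvk and Srebf2 points of IP lie above all IN points, and the Lss and Fads1 points of IP lie below all IN points. The Hmgcs1, Scd2 and Idi1 points overlap. With unscaled TPM Lss was 1.07 and Fads1 1.55 higher in IP on the log2 scale, both less than the median of all genes at 1.84.

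Among the 11 sterol genes, 7 were higher (63.6%) and 3 lower (27.3%) in IP, where 40.5% of all genes were higher and 38.9% lower. Their median log2 difference was 0.41. The counts were 6 higher and 3 lower with quantile normalization and with the protein-coding total, and 7 higher and 2 lower without female pool 2. Dhcr7, the reductase of 7-dehydrocholesterol and a last step of the pathway, lies at chr7:143823145-143848410 on the plus strand. Its lowest, median and highest levels were 38.1, 56.4 and 83.3 scaled TPM in IP, against 21.5, 23.4 and 33.7 in IN. All IP libraries were above all IN libraries, with female pool 2 lowest and male pool 2 highest in IP, and both pools numbered 3 highest in IN. The log2 difference of 1.17 ± 0.12 (SE, n = 8 pools, limma, adjusted p = 7.7e-06) was the highest of all members, and the pools ranged between 0.64 and 1.79.

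The opposite end was Lss, lanosterol synthase, which folds squalene epoxide into the first sterol ring system and lies at chr10:76531588-76557138 on the plus strand. Its lowest, median and highest levels were 3.63, 4.73 and 7.82 scaled TPM in IP, against 7.85, 9.19 and 18.8 in IN. The highest IP library, male pool 2, and the lowest IN library, female pool 3, nearly touched without overlapping, and male pool 2 was also the highest of IN. The log2 difference was -0.93 ± 0.14 (SE, n = 8 pools, limma, adjusted p = 9.3e-05), and the 8 pools lay between -1.48 and -0.32. Sqle, the epoxidase just before Lss in the chain, moved the other way, with 99.8 ± 7.46 in IP and 53.6 ± 2.73 in IN and a log2 difference of 0.88. Hsd17b7, the 3-keto reductase of the sterol nucleus, averaged 11.0 ± 0.66 in IP and 17.4 ± 1.37 in IN, with no overlap and a log2 difference of -0.61 ± 0.04 (SE). With unscaled TPM Lss was 1.07 and Hsd17b7 1.52 higher on the log2 scale, both less than the median of all genes at 1.84.

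The other sterol genes were mostly higher. Tm7sf2, a reductase of the sterol ring, and Ebp, the sterol isomerase, had log2 differences of 0.93 ± 0.06 and 0.77 ± 0.08 (SE) with no overlap between fractions. Tm7sf2 shares 532 bases on the same strand with Vps51, which had a difference of 0.63, so reads of the 2 could be mixed. Nsdhl, a decarboxylating dehydrogenase, averaged 21.9 ± 1.38 in IP and 16.3 ± 0.72 in IN, a difference of 0.41. Msmo1, the methylsterol oxidase, was 0.32 higher on the main scale but -0.03 with quantile normalization. Fdft1, squalene synthase, was higher in all 8 pools by 0.52 ± 0.08 (SE), although its fractions overlapped because the IN libraries of female pool 4 and male pool 2 stood at 48.8 and 56.2, against 33.1 to 34.7 in the other 6. Fdft1 shares 774 bases with Ctsb on the opposite strand, which had a log2 difference of 0.90, and it was not tested whether reads of 1 strand were counted for the other. Sc5d, the C5 desaturase, did not pass at 0.23 ± 0.11 (SE, n = 8 pools, limma, adjusted p = 0.078), with 29.8 to 54.7 in IP and 33.3 to 41.6 scaled TPM in IN.

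Cyp51, the lanosterol demethylase, was the third sterol gene called lower, by a small amount. It averaged 31.4 ± 3.53 in IP and 34.2 ± 4.38 scaled TPM in IN, with overlap, and its log2 difference was -0.12 ± 0.04 (SE, n = 8 pools, limma, adjusted p = 0.027). Without the replicate block for pools its adjusted p by limma was 0.14, and without female pool 2, male pool 2 or male pool 4 it did not pass either, at -0.11, -0.10 and -0.10. Cyp51 shares 166 bases with Akap9 on the opposite strand, which had a log2 difference of -0.79. Whether reads of 1 strand were counted for the other was not tested. Over mevalonate and sterol enzymes together, 12 of 18 were higher and 3 lower, with a median of 0.60, and with the protein-coding total 11 were higher and 4 lower, with a median of 0.37. The shares of all genes were 40.5% higher and 38.9% lower on the main scale, and 27.3% and 50.5% with the protein-coding total.

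The regulators split. Srebf2, which encodes SREBP2, the activator of cholesterol genes, was higher in IP, and Srebf1, which encodes SREBP1, and Insig1, which retains both in the endoplasmic reticulum, were lower. Srebf2, at chr15:82147266-82205376 on the plus strand, had its lowest, median and highest levels at 48.8, 65.5 and 70.1 scaled TPM in IP, against 36.5, 37.8 and 39.7 in IN. No libraries overlapped, female pool 2 was the lowest of IP, and the IN libraries were nearly equal. The log2 difference of Srebf2 was 0.71 ± 0.07 (SE, n = 8 pools, limma, adjusted p = 3.3e-06). Srebf1, at chr11:60199089-60222581 on the minus strand, had 12.1, 14.1 and 18.7 in IP, against 14.8, 18.2 and 21.7 in IN. These ranges overlapped, and 1 of 8 pools was higher in IP. Its log2 difference was -0.25 ± 0.07 (SE, n = 8 pools, limma, adjusted p = 0.0063). Srebf1 shares 109 bases with Rai1 on the opposite strand, which had a log2 difference of -0.46. Whether reads were counted across strands was not tested.

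Insig1 had its lowest, median and highest levels at 25.5, 27.6 and 32.8 scaled TPM in IP, against 32.9, 37.9 and 44.5 in IN. All IP libraries lay below all IN libraries, with the highest IP library just under the lowest IN library. The log2 difference of Insig1 was -0.39 ± 0.07 (SE, n = 8 pools, limma, adjusted p = 0.00068). Scap, the escort of SREBP proteins, was higher at 26.8 ± 2.55 in IP and 21.4 ± 3.59 in IN, with overlap, a log2 difference of 0.32 and no call with the protein-coding total (0.10). Stard4, a carrier of cholesterol between membranes, had 22.6 ± 1.91 in IP and 21.6 ± 1.77 in IN and did not pass (limma, adjusted p = 0.15). Srebf1, Insig1 and every other member were higher in IP with unscaled TPM, Srebf1 by 1.90 and Insig1 by 1.83, near the all-gene median.

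The fatty acid genes fell into 2 directions. Of the 8, 3 were higher in IP (Acly, Fasn and Acaca), 4 were lower (Elovl6, Scd2, Fads1 and Fads2), and Scd1 did not pass. The group's median log2 difference was -0.19, and it was -0.36 with quantile normalization and -0.43 with the protein-coding total, each with 2 higher and 5 lower. With unscaled TPM all 8 were higher, with a median of 2.09. Acly, at chr11:100476353-100528000 on the minus strand, had its lowest, median and highest levels at 176, 197 and 209 scaled TPM in IP, against 93.7, 102 and 111 in IN. There was no overlap, and the lowest IP library, female pool 2, was still above the highest IN library. The log2 difference was 0.92 ± 0.05 (SE, n = 8 pools, limma, adjusted p = 1.2e-07). Fasn, fatty acid synthase, had 91.5 ± 6.64 in IP and 60.6 ± 7.90 in IN, a difference of 0.59 with no overlap. Acaca, which makes malonyl-CoA, had 29.8 ± 2.75 in IP and 26.2 ± 3.30 in IN, a difference of 0.18 that did not pass without female pool 1 or 4 or male pool 2 or 3, and that was -0.04 with the protein-coding total.

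Of the 5 members that lengthen or desaturate fatty acids, Elovl6, Scd2, Fads1 and Fads2 were lower in IP, and Scd1 did not pass. Fads1, the delta-5 desaturase of polyunsaturated fatty acids at chr19:10182888-10196870 on the plus strand, had its lowest, median and highest levels at 23.8, 27.8 and 31.7 scaled TPM in IP, against 40.4, 46.8 and 47.9 in IN. The fractions were well apart, with all 8 pools lower. The log2 difference of Fads1 was -0.68 ± 0.04 (SE, n = 8 pools, limma, adjusted p = 2.5e-07). Fads2, the delta-6 desaturase and a neighbour of Fads1 on chromosome 19, averaged 18.3 ± 1.03 in IP and 26.4 ± 1.57 in IN, a difference of -0.50 with no overlap. Elovl6, which lengthens saturated and monounsaturated acids, averaged 24.7 ± 2.31 in IP and 32.2 ± 2.43 in IN, a difference of -0.37 with no overlap.

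The paralogs Scd1 and Scd2 had closer levels in the 2 fractions than the desaturases Fads1 and Fads2. Scd2, at chr19:44293676-44306864 on the plus strand, had its lowest, median and highest levels at 320, 366 and 475 scaled TPM in IP, against 417, 439 and 589 in IN. The ranges overlapped through male pool 2, the highest library of both, yet every pool was lower in IP. The log2 difference of Scd2 was -0.31 ± 0.05 (SE, n = 8 pools, limma, adjusted p = 0.00039). Scd1, at chr19:44394451-44407709 on the minus strand, had 176, 207 and 243 in IP, against 201, 221 and 241 in IN. Its difference of -0.08, with a 95% interval of -0.21 to 0.06, did not pass (limma, adjusted p = 0.25), while it was -0.36 with quantile normalization and -0.32 with the protein-coding total, where it was called lower. Reads of this family could be split among near-identical copies, and the low paralogs Scd3 and Scd4 were 0.41 and 0.32 higher in IP.

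Genes of the same pathways outside the 31 were counted in 3 lists. Of 23 tested genes of other synthesis steps and controls, 9 were higher and 12 lower in IP, with a median of -0.11, and 9 and 10 without female pool 2. With all pools 39.1% were higher and 52.2% lower, where 40.5% of all genes were higher and 38.9% lower. The share of higher calls was thus near that of all genes. The highest of this list were Fads3 at 0.89 and Hacd3, a dehydratase of fatty acid elongation, at 0.78. The lowest were Acacb, the mitochondrial acetyl-CoA carboxylase, at -1.57, and Thrsp, a lipogenic gene of adipocytes and liver, at -1.54. The sum of adipocyte markers was 1.17 to 8.42 in IP and 7.03 to 45.8 scaled TPM in IN, with Cidec, Lep and Retn at 0 in at least 1 IP library, and its part in these 2 values was not tested.

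Of 20 tested genes of cholesterol uptake, efflux and storage, 4 were higher and 11 lower, with a median of -0.39, and 6 and 11 without female pool 2. The lowest were Apoe, the lipoprotein of glia and macrophages, with 76.2 ± 37.2 in IP and 616 ± 90.7 in IN (-3.13), and Vldlr at -2.19. Of 7 genes of myelin sphingolipid synthesis 6 were lower (85.7%, against 38.9% of all genes). They were led by Ugt8a, which makes galactosylceramide, at -3.41 and Fa2h, the fatty acid hydroxylase, at -2.60, and Sptlc1 was 0.24 higher. With unscaled TPM, 22 of 23, 14 of 20 and 3 of 7 genes of the 3 lists were called higher, where 90.8% of all genes were. All members thus lay within -0.93 and 1.17, while the medians of the glial marker lists were -2.81 for satellite glia and -2.58 for Schwann cells and that of the nociceptor markers was 1.56.

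**Figure D4:**
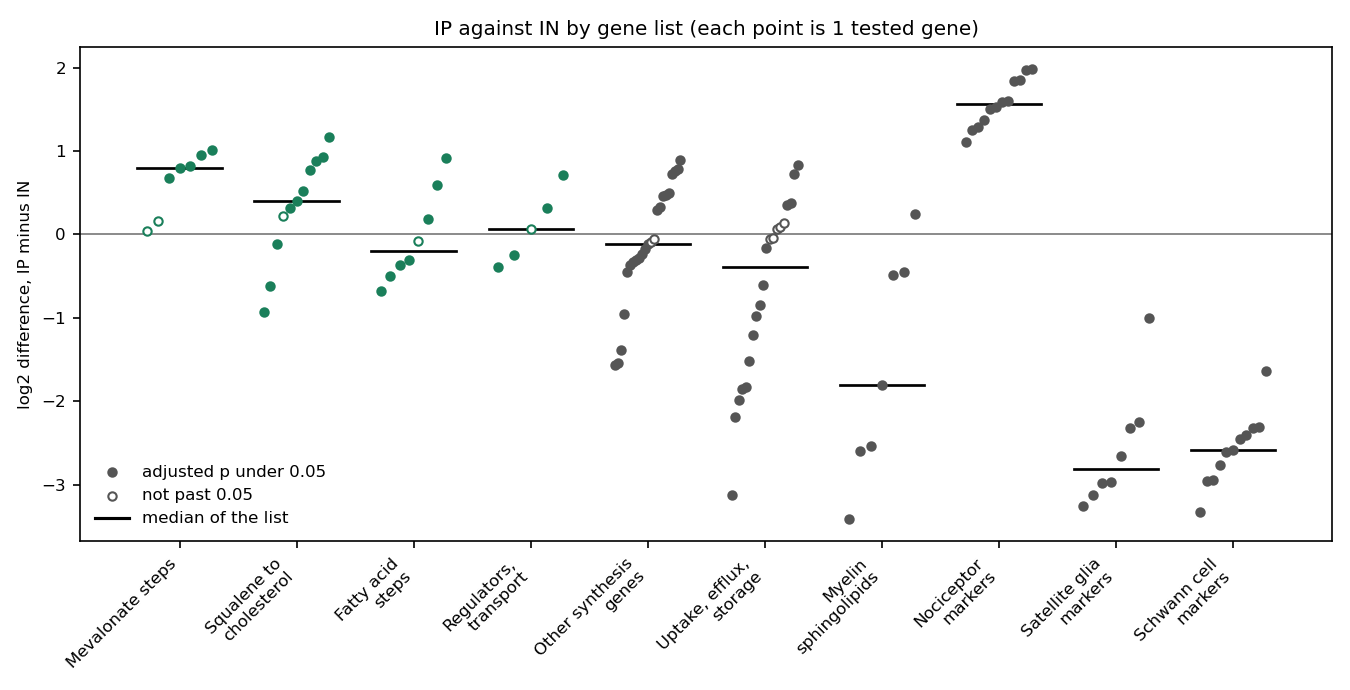
Fitted log2 difference of IP minus IN for each tested gene of the 4 member roles, 3 lists of related genes and 3 cell type marker lists, with filled points where the adjusted p was under 0.05, open points where it was not, and a bar at the median of the list. The member roles lie between -0.93 and 1.17, nearer 0 than the satellite glia (median -2.81) and Schwann cell (median -2.58) markers. The signs of the member roles hold for scaled TPM. With unscaled TPM all members are above 0, where the median of all genes is itself 1.84.

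The same comparison was made within each sex. In female pools 16 members were higher and 8 lower in IP, where 32.5% of all 16115 tested genes were higher and 33.6% lower (66.1% in all). In male pools 15 were higher and 7 lower, where 35.4% of 16061 genes were higher and 34.8% lower (70.2% in all). Called in both sexes were 14 higher and 7 lower members, none was called in opposite directions, and 29 of 31 had the same sign. For these counts the shares of all genes were not computed. The 2 with opposite signs were Idi1, with -0.10 in female pools and 0.41 in male pools, and Sc5d, with 0.47 in female pools and -0.02 in male pools. Without female pool 2 the female counts were 17 higher and 6 lower. The female count of lower members was 5 without pool 1, without pool 3 or without pool 4, and the male count was 12 with the protein-coding total. The sums of the Schwann cell markers in IP ranged over 417 to 1071 for the female pools, and over 588 to 846 for the male ones.

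The last comparisons ask whether the sexes differ. Female and male pools were not shown to differ for any of the 31 members, in IP or in IN. In IP 0 members were called by limma, where 0.05% of 15992 genes were. At an unadjusted p under 0.05 were 3 of 31 members and 374 of the 15992 genes. In IN 0 were called, where 0.0883% of 13591 genes were, and 5 of 31 members and 660 of the 13591 genes were at an unadjusted p under 0.05. The counts stayed at 0 with every other setting tried. The median log2 difference of female minus male was -0.07 over the members in IP, with 23 of 31 negative against 50.1% of all genes, and -0.08 in IN, with 26 of 31 negative (83.9%) against 49.8% of all genes. In IP that median was -0.03 without female pool 2, with 22 of 31 negative against 52.6% of all genes. It was -0.02 with the protein-coding total, and with unscaled TPM it was -0.19, where the median of all genes was -0.11. In IN its sign depends on the scaling, since it was 0.05 with unscaled TPM, where the median of all genes was 0.11. Male pool 2 had the highest summed level of the 31 members of all pools in both fractions, 2412 in IP and 2135 in IN, and the highest Schwann cell sum in IN, 3760. Without male pool 2 the members' median of female minus male was -0.04 in IP and -0.07 in IN. In each, 25 of 31 members were negative, against 48.9% of all genes in IP and 50.9% in IN. Of the 11 Schwann cell markers 1 was negative in IP (median 0.13) and 10 were negative in IN (median -0.22, 4 at an unadjusted p under 0.05), with none called. The part of these markers in the members' values was not tested.

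The members with the smallest p in each sex comparison are described as not passing. In IP these were Acaca, Sc5d and Idi1. Acaca had 29.5, 26.3, 28.3 and 27.2 in female pools, against 30.6, 35.2, 31.02 and 30.4 scaled TPM in male pools, which do not overlap. Its log2 difference of female minus male was -0.19, with a 95% interval of -0.35 to -0.02. Sc5d had 48.7, 48.2, 54.7 and 43.7 in female pools, against 35.0, 29.8, 43.4 and 46.4 in male pools in IP, with overlap, a difference of 0.35 and an interval of 0.03 to 0.66. The difference of Idi1 in IP was -0.75 with an interval of -1.46 to -0.03, subject to the uncertain levels above, and it rested on female pools 2 and 3, which were low. All 3 had an adjusted p of 0.99987 by limma.

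In IN the smallest p were those of Insig1, Sc5d and Hsd17b7. Insig1 had 33.1, 38.1, 36.5 and 32.9 in female pools, against 37.7, 44.5, 39.5 and 39.9 scaled TPM in male pools, with the female value of pool 2 above the male value of pool 1. Its difference was -0.20 with a 95% interval of -0.36 to -0.03. Sc5d had 33.3, 35.0, 36.5 and 34.8 in female pools, against 36.7, 41.6, 39.0 and 37.1 in male pools in IN, without overlap, and a difference of -0.14. Hsd17b7 had 17.4, 15.8, 16.5 and 16.3 in female pools, against 17.2, 19.9, 18.8 and 17.5 in male pools in IN, with female pool 1 above male pool 1, and a difference of -0.15. All 3 had an adjusted p of 0.96 by limma.

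Whether the difference of IP and IN itself depended on sex was tested as an interaction. By limma 0 members were called, where 0.0186% of 16099 genes were. At an unadjusted p under 0.05 were 2 of 31 members and 448 of the 16099 genes. Sc5d had the smallest p, with a log2 interaction of female minus male of 0.49 and a 95% interval of 0.13 to 0.85. Insig1 followed with 0.29 (0.01 to 0.57) and Lss with 0.49 (-0.04 to 1.02), and all 3 had an adjusted p of 0.99999 by limma.

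**Figure D5:**
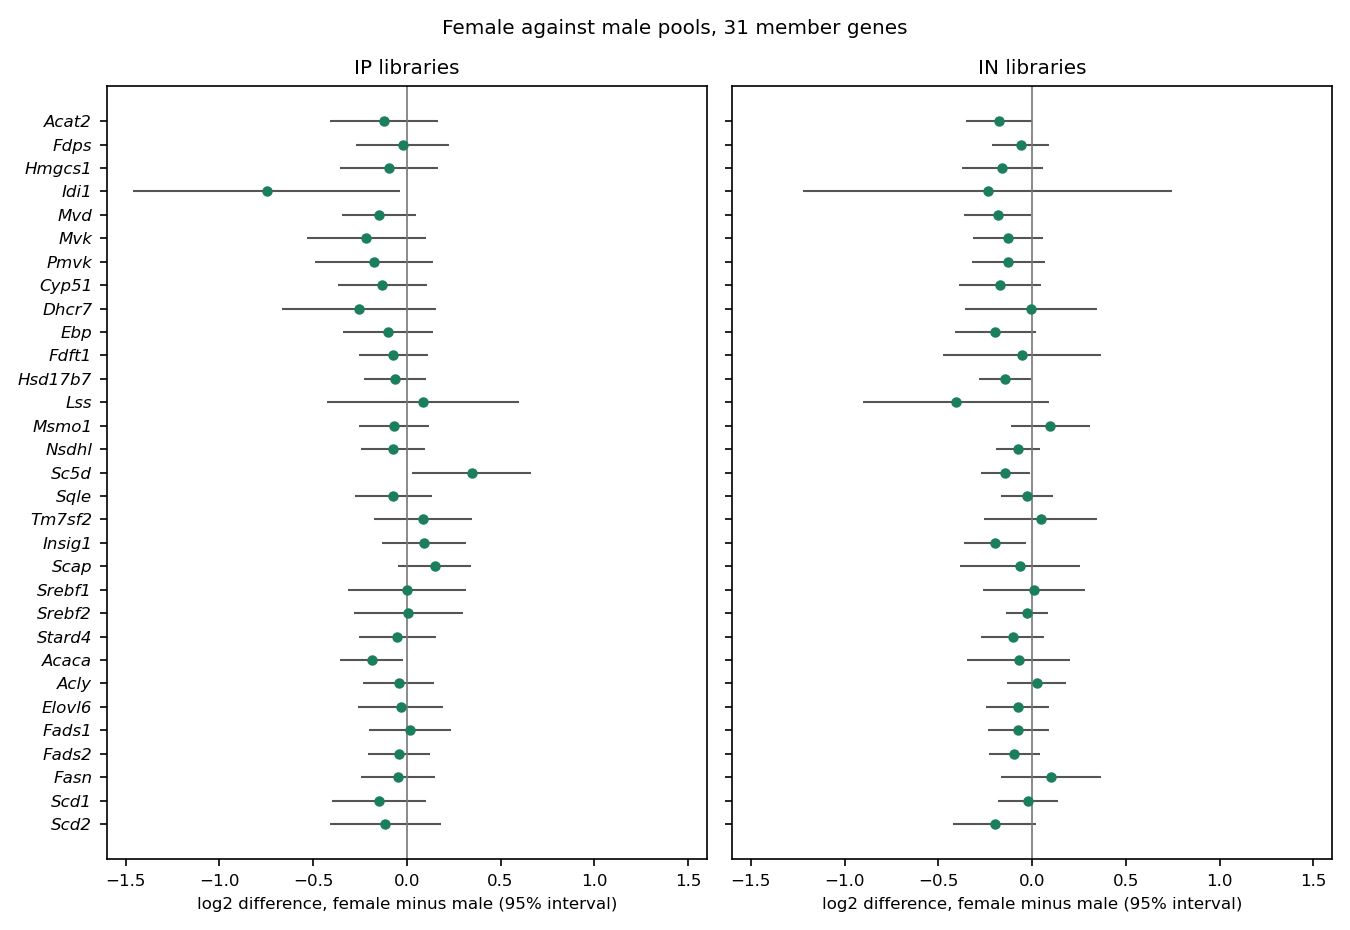
Log2 difference of female minus male pools for the 31 members in IP (left) and IN (right), with 95% intervals from limma (4 pools per sex). In IP 23 and in IN 26 of 31 members lie below 0, and none passed an adjusted p of 0.05. With unscaled TPM the median in IN is 0.05 and so above 0, where the median of all genes is 0.11.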

How the data were processed

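Each of 8 pools held ganglia of 3 mice of 1 sex, per the series design text, and IP and IN came from the same pool. Per the labels' protocols, RNA was purified with the Direct-zol kit and ribosomal RNA was depleted. Per the submitters' processing notes, the build was GRCm38.p5 and the tools were StringTie 1.3.5, STAR 2.2.1 and FastQC. In the sources used here neither the annotation release nor the strand setting is given. The deposited column was taken as the authors' TPM since every library sums to 1000000, although the header ends in Coverage. Depth, and the precision it would give, are unknown.

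Median-of-ratios scaling over the tested genes had factors of 1.65 to 2.69 in IP and 0.375 to 0.532 in IN. The pseudocount was 1, and genes with a mean of at least 1 deposited TPM in a group compared were tested. Limma 3.58.1 (R 4.3.3) was used with a trend, two-sided, adjusted by Benjamini-Hochberg over all genes tested. It was also run on data simulated from the same model, which cannot test whether that model suits these libraries. The pool was a block for IP against IN and for the interaction, since the design pairs these libraries (correlations of deviations 0.01 to 0.41), but not between the sexes. Replicates are pools of separate mice. Members and lists were chosen with earlier results of these data known. Lowest, median and highest levels are given for the largest and smallest difference of each role and for the SREBP and SCD genes. Values per library are given for the members with the 3 smallest p of female against male in IP and in IN. Alternatives were other scalings, pseudocounts, no filter, the block and each pool left out. Tables were made with Python 3.11.15 and pandas 2.3.3. Some single genes of the lists are not reported here.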

Additional observations from a re-analysis of the deposited data

Results flagged for a closer look

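In each sex and fraction the highest or lowest of 4 libraries was set against the gap to the others with Dixon's criterion. Chance gives about 1 in 20 groups, and 10 of 124 groups were past it, in 7 members. Fdft1 stood at 48.8 scaled TPM in female IN pool 4, where the other 3 lay between 33.6 and 34.6, and at 56.2 in male IN pool 2, where the others lay between 33.1 and 34.7. Dhcr7 stood at 33.7 in female IN pool 3, against 21.5 to 23.4 in the others, and at 30.7 in male IN pool 3, against 22.1 to 23.4 in the others. Acaca was at 35.2 in male IP pool 2, against 30.4 to 31.02, and at 20.7 in male IN pool 3, against 28.8 to 29.4. Fdps was at 129 in male IP pool 3, against 107 to 110 in the others. Scap was at 22.7 in male IP pool 2, against 26.0 to 26.4, and Srebf1 at 14.8 in male IN pool 2, against 18.1 to 18.7. Scd1 was at 202 in female IN pool 1, against 220 to 223 in the others. No member was past the criterion in female IP libraries.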

How the results depend on the processing

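Depth is unknown, and all directions are relative to the scaling. With unscaled TPM the median of all genes was 1.84, and 31 members were higher and 0 lower in all pools, in female pools and in male pools. The log2 differences that turned positive there were Lss 1.07, Cyp51 2.098, Hsd17b7 1.52, Srebf1 1.90, Insig1 1.83, Elovl6 1.84, Scd1 2.196, Scd2 1.98, Fads1 1.55 and Fads2 1.68. With quantile normalization (all-gene median 0.15) Hmgcs1 was -0.20, Msmo1 -0.025, Sc5d -0.013 and Stard4 -0.029. With the protein-coding total (all-gene median -0.17) Hmgcs1 was -0.19, Idi1 -0.071, Sc5d -0.0050, Stard4 -0.16 and Acaca -0.044, and 12 members were lower in male pools. With 1 pool left out Idi1 ranged between -0.027 (without male pool 4) and 0.352. The cause was not tested. Over the 15 settings other than unscaled TPM, the main one included, 14 members were called higher and 8 lower in each. For this count the share of all genes was not computed. Leaving out 1 pool gave 16 to 17 higher and 8 to 9 lower members in all pools, 15 to 17 and 5 to 6 in female pools (8 lower with all 4), and 15 to 16 and 6 to 8 in male pools. Without the replicate block, 18 members were higher and 8 lower in IP; Cyp51 lost its call and Sc5d gained one (adjusted p = 0.045 by limma), and no other member's call moved. Same-numbered female and male libraries correlated at -0.30 to 0.10 and share only a number; with them as a replicate block 0 members were called between the sexes, as in every other setting.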
